A study of Mus musculus with 6 samples.

Results

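Amino acid uptake, polyamine synthesis and the growth regulator Myc were followed through 10 genes in CD8+ T cells of tumor-draining lymph nodes. The genes are Myc, the transporter genes Slc7a5, Slc3a2, Slc1a5, Slc38a1, Slc38a2, Slc7a1 and Slc7a6, the polyamine enzyme gene Odc1 and the nucleolar gene Ncl. They were taken by name, and each name matched a single row among the 49315 genes of the deposited counts. All 10 passed the filter on low counts, with between 1352 and 41759 counts per library.

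Wild-type female C57Bl6/J mice carried B16F10 tumors, a transplanted mouse melanoma (the sample labels spell the line B26F10). Treatment was given when tumors measured 50 to 100 mm3. Mice of the monotherapy group had a single subcutaneous dose of HCW9218, a complex of TGF-βRII and IL-15 by the series title. Mice of the combination group had HCW9218 with an intraperitoneal antibody against PD1. Total CD8+ T cells were sorted on day 5 for bulk RNA sequencing, giving 3 libraries per group with 34568074 to 40101346 counts each. The labels do not say whether a library holds cells of a single mouse, so errors and p-values measure the spread between these libraries. Both groups had HCW9218, so what follows compares the added antibody with HCW9218 by itself, and untreated mice were not analysed here.

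MYC pairs with MAX and binds the E-box CACGTG in many genes of growth, among them genes of ribosome assembly, amino acid transport and polyamine synthesis. T cells that meet antigen or growth cytokines raise MYC and, with it, amino acid import, and the MXD proteins compete with MYC for MAX at the same sites. SLC7A5 carries leucine and other large neutral amino acids and SLC7A6 carries cationic and neutral ones, both only as dimers with the heavy chain SLC3A2. SLC1A5, SLC38A1 and SLC38A2 bring in glutamine and small neutral amino acids, and SLC7A1 brings in arginine, from which ODC1 makes putrescine by way of ornithine.

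The E-boxes of Ncl are shown first, as the letters that MYC and its partners read in a gene long known as a MYC target. Intron 1 of the longest annotated Ncl transcript held 5 copies of CACGTG within 209 bases, on the minus strand of chromosome 1 in GRCm38. They lie in the first exon of a shorter Ncl transcript of 661 bases in GENCODE M21, from which they were read. Capitals mark the E-box, with 10 bases on each side.
Ncl site 1, chr1:86358820-86358845: cctccccgcgCACGTGctctggtgcg
Ncl site 2, chr1:86358796-86358821: cgcggcccgcCACGTGctctgcggag
Ncl site 3, chr1:86358775-86358800: cggagccccgCACGTGtcgcgcgacc
Ncl site 4, chr1:86358654-86358679: ccgggatggaCACGTGgtggacccct
Ncl site 5, chr1:86358617-86358642: gtggtgactcCACGTGgtggggctgg
Of 94607 annotated mouse transcripts at least 661 bases long, 9.50% had 1 or more CACGTG in their first 661 bases and 3 transcripts had 5 or more. The Ncl transcript is 1 of those 3. It was chosen among Ncl transcripts for holding at least 5 copies, so its place there was fixed by the choice. The match is a description of the letters, since no binding was measured in these cells.

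RefSeq promoter windows of 300 bases (GRCm38.p6, from 250 bases before a gene's start) were at hand for 6 of the 10 genes. None of their 8 windows held CACGTG, which 7.15% of 32851 windows did. The Ncl window is among these 8 and does not reach the intron 1 sites shown above. Introns of the other genes were not searched, so the windows say nothing of E-boxes elsewhere in those genes. The Odc1 window, chr12:17544623-17544922 on the plus strand, is shown because Odc1 had the largest difference of the 10 genes. Capitals mark the GC box GGGCGG or its reverse complement CCGCCC, which were searched on both strands.
Odc1: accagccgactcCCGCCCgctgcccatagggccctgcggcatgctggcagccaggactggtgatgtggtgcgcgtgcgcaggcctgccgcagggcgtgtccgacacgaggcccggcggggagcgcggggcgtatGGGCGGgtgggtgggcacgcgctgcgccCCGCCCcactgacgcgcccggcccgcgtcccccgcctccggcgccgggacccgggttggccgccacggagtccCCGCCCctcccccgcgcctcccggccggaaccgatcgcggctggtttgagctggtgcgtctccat
It held 4 GC boxes, whereas 35.7% of all windows held 1 or more and 5.49% held 4 or more.

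With anti-PD1 added, none of the 10 genes passed the threshold of an adjusted p under 0.05, in edgeR's quasi-likelihood test over 15142 genes. Over all genes the test called 1.08%, of which 0.951% were higher and 0.132% lower. At an unadjusted p under 0.05, Odc1 alone among the 10 was lower, beside 3.39% of all genes. DESeq2 called Odc1 lower (adjusted p = 0.0308) and limma-voom called 0 of the 10. Of the 10 genes, 7 had a log2 fold change below 0, as did 50.1% of all genes. Their median was -0.24, against -0.00060 over all genes, and it was -0.13 without combination replicate 1. For Odc1, Myc, Slc3a2 and Slc7a6 all 3 combination libraries lay below all 3 monotherapy libraries, which held for 7.54% of all genes. In bulk RNA, fewer cells of a type and less RNA per cell cannot be told apart.

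**Figure D1:**
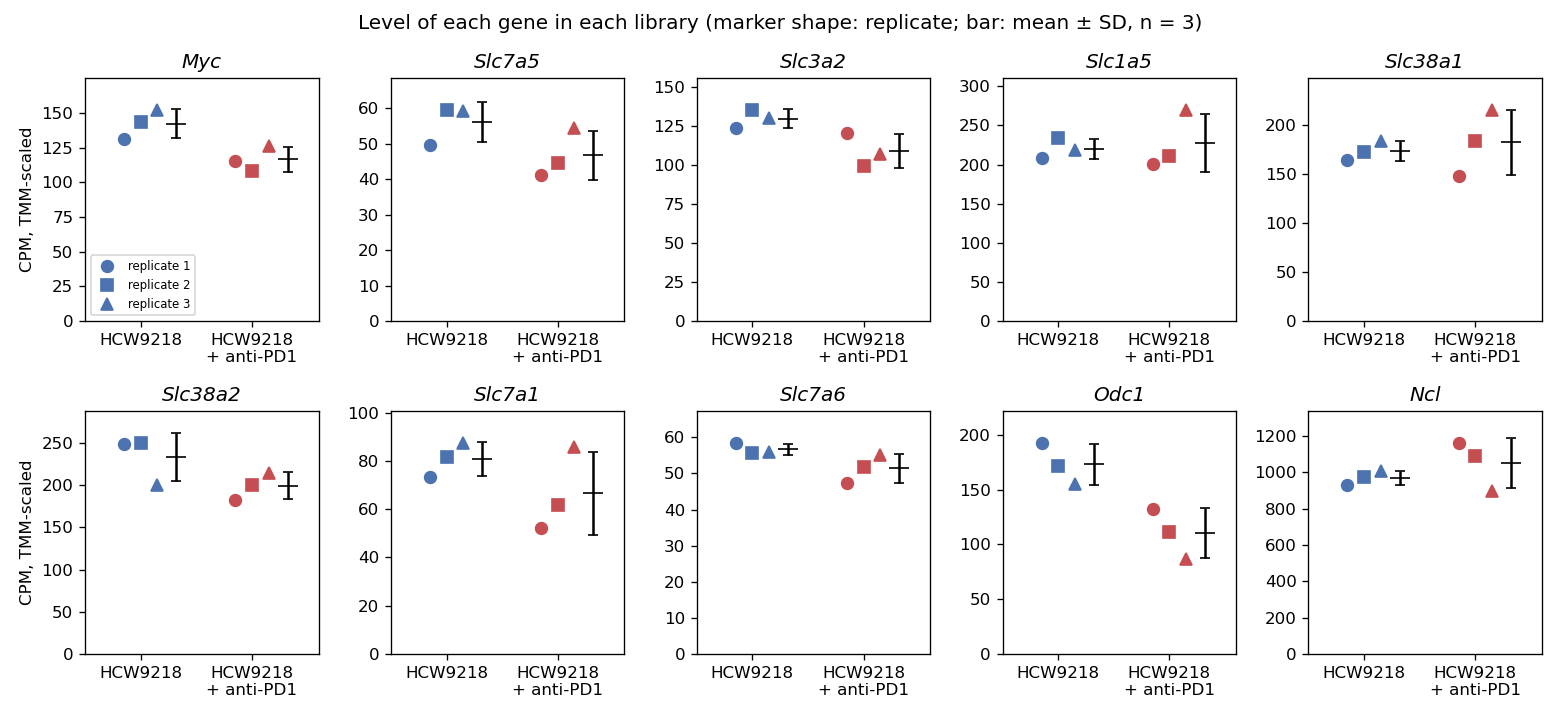
CPM of the 10 genes in each of 6 libraries, by treatment on the x axis; marker shape gives the replicate, and the black bar beside each group is the mean ± SD of 3 libraries. Odc1, Myc, Slc3a2 and Slc7a6 show no overlap between groups, whereas Slc1a5, Slc38a1 and Ncl have combination libraries on both sides of the monotherapy libraries.

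Odc1 encodes ornithine decarboxylase, the rate-limiting enzyme of polyamine synthesis (chromosome 12, 17544873 to 17551502, plus strand). Its level in CPM, the counts of a gene for each 1000000 of the library's TMM-scaled total, was 192, 172 and 155 in monotherapy replicates 1, 2 and 3, and 132, 112 and 86.6 CPM in combination replicates 1, 2 and 3. No combination library reached the monotherapy range. The means were 173 ± 18.9 and 110.2 ± 22.9 CPM (SD, n = 3 each), and the log2 fold change was -0.65 ± 0.17 (SE; edgeR adjusted p = 0.185). The 95% interval of this log2 fold change ran from -1.04 to -0.26, and Odc1 stood at place 339 of 15142 genes by p.

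Odc1 was lowest in the libraries that also held transcripts of pigment cells. Dct and Tyrp1, enzymes of melanin synthesis, summed to 0, 582 and 743 counts for combination replicates 1, 2 and 3, against at most 1 count in a monotherapy library. Combination replicate 1, without a count of either, had the highest Odc1 level of its group, below the lowest monotherapy library. Against that library alone, the log2 fold change of Odc1 was -0.39. A fit with the summed log2 CPM of Dct and Tyrp1 as a covariate gave -0.40. Since combination replicates 2 and 3 alone carry these transcripts, that fit too rests on combination replicate 1 against monotherapy, and it cannot separate pigment-cell RNA from the difference between combination libraries.

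Counts at a small RNA gene inside Odc1 were also lower with the combination. Gm22748, which GENCODE lists as a snoRNA, lies in intron 1 of Odc1 on the same strand (chr12:17546146-17546281, GRCm38), and 0 of its 136 bases overlap an Odc1 exon of the deposited gene model. It is outside the rule for named genes and was picked after its values were seen, so its test is a description. Its sequence is shown with the ACA, 3 bases from the end, that marks the box H/ACA class of snoRNA.
Gm22748: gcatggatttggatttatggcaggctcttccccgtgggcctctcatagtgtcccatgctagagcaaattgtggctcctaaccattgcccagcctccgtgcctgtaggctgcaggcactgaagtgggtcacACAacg
Counts of Gm22748 were 163, 170 and 133 in monotherapy replicates 1, 2 and 3 and 40, 69 and 60 in combination replicates 1, 2 and 3. The groups did not overlap. Its mean was 4.02 ± 0.713 CPM in monotherapy and 1.53 ± 0.303 CPM in the combination (SD, n = 3 each), and it fell by 1.39 ± 0.27 (SE) on the log2 scale (edgeR adjusted p = 0.0436). The call was lost without monotherapy replicates 1, 2 or 3 (adjusted p = 0.276, 0.246 and 0.108) and without combination replicates 1 or 2 (adjusted p = 0.0757 and 0.126). It was also lost in limma-voom (adjusted p = 0.0584), without TMM scaling (adjusted p = 0.0623) and with the covariate, which rests on 1 combination library (adjusted p = 0.0740). Over all these settings the log2 fold change stayed between -1.74 and -1.23. The libraries were made after poly(A) selection, and reads of the small RNA and of unspliced Odc1 RNA cannot be told apart at this locus.

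**Figure D2:**
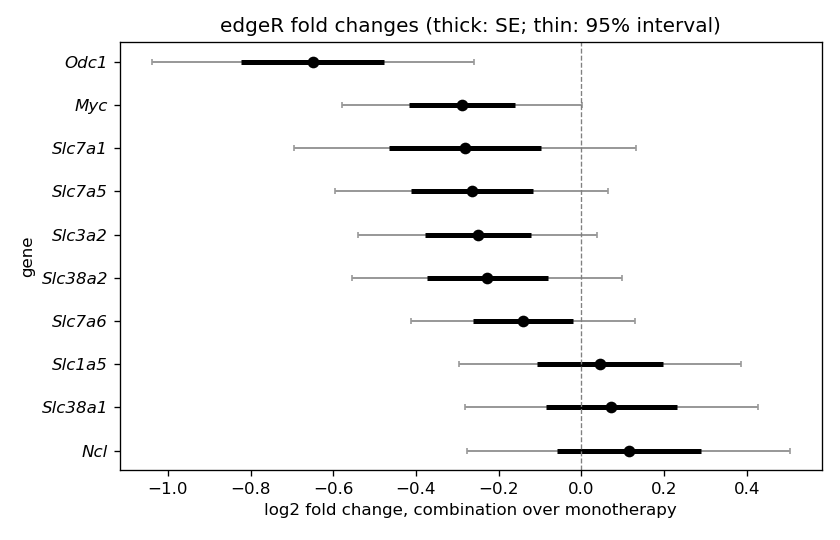
Log2 fold change of the combination over monotherapy on the x axis for each of the 10 genes, with the SE as a thick bar and the 95% interval as a thin bar, from edgeR over 3 libraries per group. Odc1 stands lowest at -0.65, and Ncl highest at 0.11.

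Myc, the transcription factor itself (chromosome 15, 61985391 to 61990374, plus strand), was slightly lower with the combination and did not pass. Monotherapy replicates 1, 2 and 3 had 131, 144 and 152 CPM of Myc, and combination replicates 1, 2 and 3 had 115, 108 and 126 CPM. The groups did not overlap, but the highest combination library was close to the lowest monotherapy library. Means were 142 ± 10.5 and 116.5 ± 9.11 CPM (SD, n = 3 each), and the log2 fold change was -0.29 ± 0.13 (SE; edgeR adjusted p = 0.625). Leaving out single libraries kept this value between -0.35 and -0.22. In the same libraries the 10 mitosis markers, among them Mki67 and Top2a, summed to 151 to 173 CPM in monotherapy. Their sum was 389 to 530.1 CPM in the combination. All 10 were called higher in edgeR, beside 0.951% of all genes. The markers were added after values were seen, so this is a description.

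Across the 6 libraries, the genes whose log2 CPM ran most like that of Myc, among 8369 genes with a mean of at least 10 CPM, were Pmepa1, Zc3h12a and Usp6nl. Their Pearson r was 0.991, 0.989 and 0.986. These are descriptions over 6 libraries that share a scaling, and with so many genes high values of r arise easily.

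The large neutral amino acid transporter is made of Slc7a5 and its heavy chain Slc3a2. Slc3a2 (chromosome 19, 8706882 to 8723369, minus strand) was at 123, 135 and 130.4 CPM in monotherapy replicates 1, 2 and 3 and at 121, 99.3 and 107 CPM in the combination replicates. Those groups were apart by only a few CPM at their nearest libraries. Its log2 fold change was -0.25 ± 0.13 (SE; edgeR adjusted p = 0.716). Slc7a5 (chromosome 8, 121881150 to 121907694, minus strand) was at 49.7, 59.5 and 59.2 CPM and at 41.1, 44.7 and 54.3 CPM, and combination replicate 3 overlapped the monotherapy range. Its log2 fold change was -0.27 ± 0.15 (SE; edgeR adjusted p = 0.766), and -0.16 without combination replicate 1. Against combination replicate 1 alone, Slc3a2 was at -0.11 and Slc7a5 at -0.46. Per kb of exon, Slc3a2 stood at 2.44 ± 0.154 times Slc7a5 in monotherapy and 2.498 ± 0.527 times in the combination (SD, n = 3 each). Across combination libraries that ratio was 3.09, 2.33 and 2.07, a wider spread than in monotherapy.

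Slc7a6, the other light chain measured here (chromosome 8, 106168857 to 106198706, plus strand), varied least. It had 58.4, 55.6 and 56.0 CPM in monotherapy replicates 1, 2 and 3 and 47.3, 51.7 and 55.2 CPM in the combination replicates, with a log2 fold change of -0.14 ± 0.12 (SE; edgeR adjusted p = 0.928), which was -0.06 without combination replicate 1. Combination replicate 3 lay less than 1 CPM below the lowest monotherapy library.

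Slc7a1, the arginine transporter (chromosome 5, 148327410 to 148399904, minus strand), had the widest spread among combination libraries relative to its mean. It was at 73.3, 81.8 and 87.4 CPM in monotherapy replicates 1, 2 and 3 and at 52.1, 61.8 and 85.7 CPM in the combination replicates. Combination replicates 1 and 2 were below all monotherapy libraries and replicate 3 was within their range. Its log2 fold change was -0.28 ± 0.18 (SE; edgeR adjusted p = 0.844), -0.51 without combination replicate 3 and -0.11 without combination replicate 1. Against combination replicate 1 alone it was -0.64.

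Glutamine carriers did not share a direction. Slc38a2 (chromosome 15, 96687394 to 96699698, minus strand), which cells induce when amino acids run short, had 248.9, 249.7 and 200.1 CPM in monotherapy replicates 1, 2 and 3. Its combination replicates had 182, 200.4 and 214 CPM, so monotherapy replicate 3 fell among them. The log2 fold change was -0.23 ± 0.15 (SE; edgeR adjusted p = 0.837), and -0.15 without combination replicate 1.
The neighbouring gene Slc38a1 (chromosome 15, 96571418 to 96642913, minus strand) was at 164, 172 and 184 CPM and at 149, 184 and 215 CPM, with combination libraries below, within and above the monotherapy range. Its log2 fold change was 0.07 ± 0.16 (SE; edgeR adjusted p = 0.973), and the 95% interval ran from -0.28 to 0.43.
Slc1a5 (chromosome 7, 16781340 to 16798274, plus strand) had 208, 234 and 218 CPM in monotherapy and 201, 211 and 269.5 CPM in the combination. Its log2 fold change was 0.05 ± 0.15 (SE; edgeR adjusted p = 0.986), with a 95% interval from -0.30 to 0.39. Without combination replicate 3 the signs of Slc38a1 and Slc1a5 turned, to -0.06 and -0.09, and against combination replicate 1 alone they were -0.23 and -0.14.

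Ncl encodes nucleolin, a nucleolar protein of ribosome assembly (chromosome 1, 86344719 to 86359400, minus strand). It had 930.3, 973 and 1008 CPM in monotherapy replicates 1, 2 and 3 and 1161, 1092 and 898 CPM in the combination replicates. Combination replicates 1 and 2 were above the monotherapy range and replicate 3 was below it. The log2 fold change was 0.11 ± 0.17 (SE; edgeR adjusted p = 0.964), with a 95% interval from -0.28 to 0.51. It was 0.06 without combination replicate 1 and 0.22 without combination replicate 3.

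**Figure D3:**
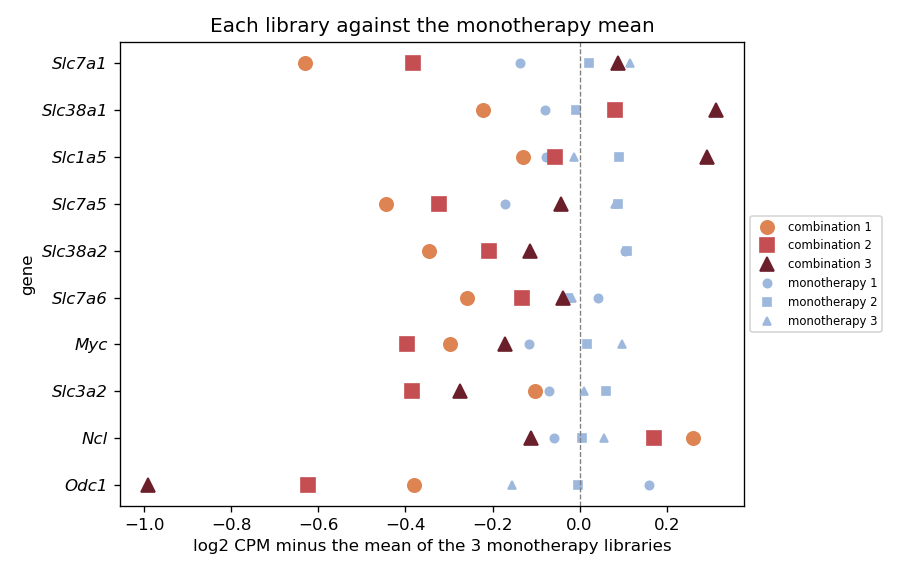
Log2 CPM of each gene in each library minus the mean of the 3 monotherapy libraries, with genes ordered by the difference between combination replicates 3 and 1; orange, red and dark red markers are combination libraries and pale markers monotherapy libraries. Combination replicates 1 and 3 stand far apart for Slc7a1, Slc38a1 and Slc1a5, and in the opposite order for Odc1 and Ncl.

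The 3 combination libraries stood apart from each other for most of these genes. Combination replicate 3 was the highest of its group for Myc, Slc7a5, Slc1a5, Slc38a1, Slc38a2, Slc7a1 and Slc7a6 and the lowest for Odc1 and Ncl. The coefficient of variation over combination libraries ran from 7.68% for Slc7a6 to 26.0% for Slc7a1. In monotherapy it ran from 2.64% for Slc7a6 to 12.2% for Slc38a2. The same libraries also differed by gene length. Relative to the monotherapy mean, the 4103 tested genes with under 2 kb of exon had a median log2 difference of 0.235 in combination replicate 1 and -0.172 in replicate 3. For the 6458 genes over 4 kb the medians were -0.126 and 0.0453. For the 4581 genes of 2 to 4 kb they were 0.0731 and -0.0736. Slc7a1, Slc38a1 and Ncl have 11530, 8391 and 10188 bases of exon and Odc1 has 2547. In combination replicates 1 and 3, Slc7a1 was at -0.631 and 0.088 and Slc38a1 at -0.222 and 0.3135. Ncl, at 0.259 and -0.111, had signs opposite to the medians of genes over 4 kb. They were the same as those of genes under 2 kb and of genes of 2 to 4 kb. The 10188 bases of Ncl are merged over annotated transcripts, and which of them these cells express was not tested. Odc1 was at -0.381 and -0.991, below 0 in both libraries. The part of length in the members' spread was not tested.

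Levels of different genes were set side by side per kb of exon, as CPM per kb averaged over the 6 libraries. Ncl was highest at 99.2, with every library above those of all other members. Odc1 followed at 55.6, Slc1a5 at 53.6, Myc at 47.6 and Slc38a2 at 46.7 CPM per kb, and the ranges of these 4 genes over libraries overlapped. Slc3a2, at 33.8, overlapped the lowest library of Odc1, and Slc38a1 was at 21.2 CPM per kb, apart from its neighbours. Slc7a5 at 13.9 and Slc7a6 at 11.8 overlapped each other, and Slc7a1 was lowest at 6.39 CPM per kb, below every library of the others. With the length of the longest annotated coding transcript in place of merged exons, Slc1a5 came before Odc1, at 80.9 and 64.1 CPM per kb, and the other places stayed. Among all tested genes, the level per kb of Slc7a1 was at percentile 57.3 and that of Ncl at percentile 97.1.

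Partners and antagonists of MYC gave the single call in the pathway. In this list of 15 genes, all tested, Mxd3 rose, 0 fell and 14 did not pass, with a median log2 fold change of 0.05. Over all genes 1.08% were called, so a single call among the 149 genes of the 7 lists lies near that share. Mxd3 encodes a MAX partner that represses E-box genes. It had 1.75, 3.79 and 2.61 CPM in monotherapy replicates 1, 2 and 3 and 10.3, 6.83 and 10.7 CPM in combination replicates 1, 2 and 3. Every combination library was above every monotherapy library. The log2 fold change was 1.77 ± 0.30 (SE; edgeR adjusted p = 0.0238). The call was lost without monotherapy replicates 1 or 3 (adjusted p = 0.125 and 0.133) and with the Dct and Tyrp1 covariate, which rests on combination replicate 1 (adjusted p = 0.0548). Over all settings its log2 fold change stayed between 1.56 and 2.08.
Mxd4, a related repressor, had 109 ± 4.06 and 134 ± 9.33 CPM (SD, n = 3 each) and did not pass (edgeR adjusted p = 0.548). Mga and Mycbp2, both long genes, had 106 and 306 CPM in combination replicate 1, against at least 170 and 627 CPM in the other 5 libraries. Their log2 fold changes were -0.35 ± 0.21 and -0.39 ± 0.28 (SE), which moved to -0.12 and -0.08 without that library. Max itself was at 143 and 158 CPM on average, with a log2 fold change of 0.15 ± 0.15 (SE).

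Nucleolar genes of ribosome assembly, many of them MYC targets, showed no call. Of 34 tested, 14 lay above 0 and 20 below, 0 had an unadjusted p under 0.05, and the median log2 fold change was -0.04. DESeq2 and limma-voom called 0 of them. The smallest p-values belonged to Nop14, Dkc1 and Utp20, with log2 fold changes of -0.25 ± 0.12, 0.27 ± 0.14 and -0.30 ± 0.17 (SE). Utp20 was at 62.7 CPM in combination replicate 1 and between 93.9 and 105 CPM in all other libraries, and its value was -0.11 without that replicate.

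Polyamine genes other than Odc1 showed no call. Of 18 tested, 9 lay above 0 and 9 below, 0 had an unadjusted p under 0.05 in edgeR, DESeq2 and limma-voom called 0, and the median was -0.01. Azin1, the antizyme inhibitor that protects ODC1 from degradation, had 91.9, 79.0 and 85.1 CPM in monotherapy and 98.8, 117 and 97.9 CPM in the combination. All 3 combination libraries were above all 3 monotherapy libraries, as for 7.17% of all genes, but Azin1 did not pass (log2 fold change 0.29 ± 0.13 (SE), edgeR adjusted p = 0.627). The spermidine synthase gene Srm also lay above without overlap, at 48.2 ± 2.17 and 53.8 ± 1.37 CPM (SD, n = 3 each; edgeR adjusted p = 0.885). Antizyme itself, Oaz1, which targets ODC1 to the proteasome, was at 453 and 498 CPM on average (log2 fold change 0.14 ± 0.20 (SE)). Arg2, a mitochondrial arginase that yields ornithine, had 12, 14 and 36 counts in monotherapy and 0, 17 and 11 in the combination and did not pass.

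**Figure D4:**
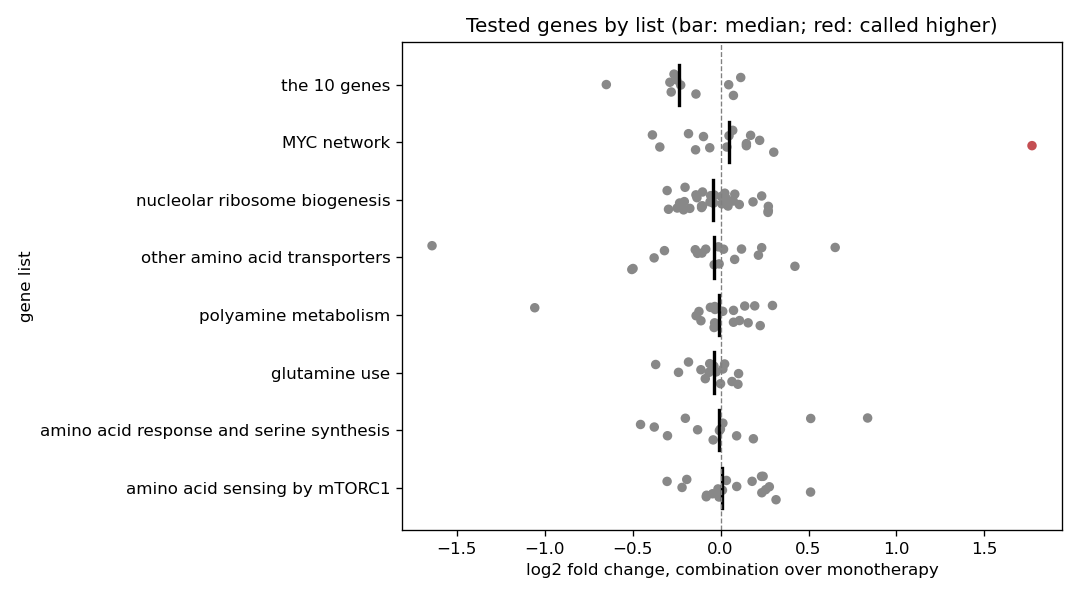
Log2 fold change of the combination over monotherapy on the x axis for every tested gene of the 10 and of the 7 pathway lists, with black bars at the medians; the vertical jitter has no meaning. Mxd3 at 1.77 is the single red point, and no gene of these lists was called lower.

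Other amino acid transporters had 0 calls in the main edgeR test, in limma-voom and in DESeq2. Over the other settings at most 1 was called higher and 0 lower. Of 24 matched genes 19 were tested, 7 lay above 0 and 12 below, 2 had an unadjusted p under 0.05, and the median was -0.04. Slc43a1, a further leucine transporter, had 2.53, 3.00 and 3.04 CPM in monotherapy and 5.71, 3.69 and 4.09 CPM in the combination, without overlap (edgeR adjusted p = 0.441). Slc7a4 was low, at 0.549 ± 0.190 and 0.174 ± 0.0642 CPM (SD, n = 3 each; edgeR adjusted p = 0.325). Slc36a4 had 10.9 ± 0.836 and 8.72 ± 0.665 CPM (edgeR adjusted p = 0.671).

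Genes of glutamine use and related metabolism had 0 calls among 16 and a median of -0.04, with 11 below 0, beside 50.1% of all genes. Idh2, the mitochondrial isocitrate dehydrogenase, had the smallest p of them, at 59.0 ± 3.27 and 45.7 ± 2.70 CPM (SD, n = 3 each). Its groups did not overlap and its log2 fold change was -0.37 ± 0.12 (SE; edgeR adjusted p = 0.344). Cad, which starts pyrimidine synthesis, had a log2 fold change of -0.24 ± 0.19 (SE), which moved to -0.05 without combination replicate 1.

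The amino acid shortage response and serine synthesis list had 0 calls among 13 tested genes and a median of -0.01. Atf4, its central transcription factor, had 224, 209 and 174 CPM in monotherapy and 191, 159 and 142 CPM in the combination, and the groups overlapped (log2 fold change -0.30 ± 0.16 (SE), edgeR adjusted p = 0.739). Sesn2, a leucine sensor, had 4.47 ± 1.03 and 6.38 ± 0.231 CPM (SD, n = 3 each; edgeR adjusted p = 0.550), and Cebpb 6.58 ± 1.604 and 4.805 ± 1.13 CPM. Of 21 tested genes through which mTORC1 senses amino acids, 12 lay above 0 and 9 below, 0 were called, and the median was 0.01. Its member with the smallest p was Sesn1, a sestrin that restrains mTORC1. Sesn1 was at 78.1, 72.9 and 62.7 CPM in monotherapy and at 120.2, 94.1 and 90.5 CPM in the combination, with no overlap (log2 fold change 0.51 ± 0.15 (SE), edgeR adjusted p = 0.268). Lars and Rragc had log2 fold changes of -0.30 ± 0.14 and 0.26 ± 0.12 (SE).

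The sort was checked on markers. Of 8 T cell and CD8 markers 0 were called, and their sum was 6136 to 7402 CPM in monotherapy and 5668 to 7428 CPM in the combination. The 8 melanocyte markers summed to 21.9 to 28.7 CPM in monotherapy and to 30.3, 43.8 and 55.9 CPM in combination replicates 1, 2 and 3. Most of this came from Pmel, at 822 to 1153 counts in every library, whereas Dct and Slc45a2 were at 0 in the monotherapy libraries and in combination replicate 1. The 8 B cell markers summed to 39.5 to 56.5 and 26.5 to 59.7 CPM, and the 10 myeloid markers to 9.76 to 22.4 and 14.3 to 16.6 CPM, with 0 called in either list. Of 8 markers of natural killer cells, Klre1 and Gzma were called higher, as were 0.951% of all genes. The 8 summed to 410.0 to 495 CPM in monotherapy and 537 to 690.0 CPM in the combination. Most of that sum was Nkg7, at 271 to 348 and 309 to 478 CPM, and Eomes, at 113 to 130 and 149 to 186 CPM. Neither of them was called. Ncr1 had 2 to 13 counts per library and a log2 fold change of -0.16 ± 0.71 (SE), and the other 7 markers lay above 0. CD4 T cell, dendritic cell, erythroid and stromal markers had 0 calls, and Ccl21a was at 0 in all libraries. Bulk counts do not tell whether the natural killer list was read from natural killer cells or from CD8+ T cells. The part of other cells in the values of the 10 genes was not tested.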

How the data were processed

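The authors deposited raw read counts for each gene, with no normalization. The submitters' processing notes name DESeq2, featureCounts, Subread 1.5.2 and STAR 2.5.2b. For settings, strand use, build and annotation release, each was not given in the sources used here. Per the labels' protocols, libraries came from a NEBNext Ultra II kit after poly(A) selection. Of 48970 genes found in GENCODE M21, 91.4% had the same coordinates, and 8 of the 10 genes; coordinates are those of the deposited files. Gene lengths are the merged exon lengths of the deposited files. The counts in both deposited forms were identical in 6 of 6 libraries, and 6 further per-sample columns, which matched no sample, stayed unused. The authors' normalized and regularized-log tables were not used.

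In R 4.3.3, edgeR 4.0.16 kept 15142 genes with filterByExpr, scaled by TMM (factors 0.901 to 1.12) and tested combination against monotherapy with a quasi-likelihood F-test, with Benjamini-Hochberg adjustment over all genes. For the SE, the fitted coefficient without a prior count was divided by the root of its F value. The labels give 3 samples per group and no batch. The test was tested on simulated data. The per-kb levels with the longest transcript were added after seeing the data. The other alternatives were other scalings, filters, DESeq2 1.42.0, limma-voom (limma 3.58.1), the replicate number as a block, a Dct and Tyrp1 covariate and leaving out libraries.

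The members and lists were chosen with earlier results of these data known. By the naming rule, the text names all 10 members, every called gene of the 7 pathway lists with up to 3 more of smallest p, and the 3 genes most like Myc; Max, Oaz1, Gm22748 and the marker genes were added after values were seen. Some genes that the rule would name are not reported here. Slc66a1, Castor1, Castor2, Samtor and Ahsp matched no gene name.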

Additional observations from a re-analysis of the deposited data

How the results depend on the processing

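Over all genes 144 were higher and 20 lower. Leaving out 1 library gave 32 to 233 and 2 to 49, DESeq2 gave 284 and 73, testing every gene with at least 1 count 340 and 113, and the Dct and Tyrp1 covariate, a fit that rests on combination replicate 1 against monotherapy, 96 and 61. Of the 10 genes, 1 (Odc1) was lower in DESeq2, with every counted gene tested (adjusted p = 0.0136) and with the replicate block, and 0 with any library left out; for Odc1 the adjusted p ran from 0.0136 to 0.578. Of the pathway genes 2 were higher with every counted gene tested, 0 higher and 1 lower (Mycbp2, by its level in that library) with the covariate, and 0 to 1 higher with a library left out. Slc1a5 and Slc38a1 turned to -0.13 and -0.22 with the covariate and, with 1 library left out, ran from -0.095 to 0.15 and from -0.063 to 0.22, below 0 without combination replicate 3; the cause was not tested. The other 8 genes kept their sign in the 16 alternatives run.

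With the replicate number as a block, 231 genes were higher and 57 lower, and Odc1 passed (log2 fold change -0.67, adjusted p = 0.0216). Same-numbered deviations from the group means correlated at 0.145, -0.0551 and 0.279. Monotherapy replicates 1 and 3 correlated best with their own number, and replicate 2 did not. With 3 libraries per group, these values cannot tell whether the numbers pair the libraries.

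The SE of Odc1, 0.174 with all libraries, changed with the library left out. It was 0.156, 0.211 and 0.147 without combination replicates 1, 2 and 3, and 0.190 to 0.217 without a monotherapy library. Without combination replicate 3 the log2 fold change of Odc1 was -0.50, and 233 genes were higher and 49 lower. Without combination replicate 1, 180 were higher and 28 lower, and without replicate 2, 69 and 4. The cause was not tested.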

Other observations

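Some genes of amino acid handling were close to uncounted in these sorted cells. Asns, the asparagine synthetase gene, had 19 to 38 counts per library, whereas Phgdh, the entry enzyme of serine synthesis, had 3576 to 4378. The cystine transporter gene Slc7a11 had 2 to 19 counts, the glutamine transporter gene Slc38a5 0 to 2, and Chac1 0 to 2. Slc7a2, an arginine transporter gene that was not tested, had 30 counts in combination replicate 3, 4 in replicate 2 and at most 1 in each of the other 4 libraries.

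The genes most like Odc1 over the 6 libraries, among 8369 genes with a mean of at least 10 CPM, were Tagap, Btg1 and Tubb2a, with Pearson r of 0.993, 0.992 and 0.992. They were looked up after the values of Odc1 had been seen, and none of them passed, with log2 fold changes of -0.48, -0.41 and -0.64.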
